A study of Aquilegia coerulea with 32 samples.

Results

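*AqAGO5a* (*Aqcoe5G237200*) and *AqAGO5b* (*Aqcoe2G159700*) are a pair of close paralogs in columbine, *Aquilegia coerulea*, both homologous to *ARGONAUTE5* of *Arabidopsis thaliana*. They are 2 of the 30023 transcripts quantified in the series, chosen by identifier, and both passed the filter on low counts that left 20477 genes. *AqAGO5a* was singled out in the study from its links with genes associated with stage 1 in these same libraries, so its stage values are described here without a test. *AqAGO5b* was taken as its closest relative by sequence. The series holds 32 RNA-seq libraries of wild-type floral buds of the cultivar 'Kiragami', 8 at each of 4 stages. At stage 1 (s1) stamen primordia were initiating, at stage 2 (s2) the staminode primordia had just finished initiating, at stage 3 (s3) the rims of the carpel primordia stood raised, and at stage 4 (s4) the growing carpels had used up the apex. A library held 2 buds at s1, s2 and s3 and 1 bud at s4, with 3 sepals taken off each bud, from plants that had been vernalized. Each library is a mixture of floral apex, primordia and the sepals left on the buds. The s4 stage cannot be told apart from the smaller number of buds that its libraries held.

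ARGONAUTE proteins bind small RNAs, among them microRNAs and siRNAs, and use them to find complementary transcripts or loci, which are then cleaved, held back from translation or silenced in chromatin. Plants have several such proteins that differ in the small RNAs they load and in the tissues where they act. In *A. thaliana*, AGO5 prefers small RNAs that begin with cytosine and is best known from reproductive tissue, and in rice the related MEL1 is needed in germ cells before meiosis. AGO1 and AGO10 of the same clade act in organ polarity and in keeping the meristem in *A. thaliana*.

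Total estimated counts per library ran from 21502103 to 31647297. The estimated counts of *AqAGO5a* lay between 2098 and 8575, and those of *AqAGO5b* between 2992 and 8746, so counting error was small beside the spread between libraries. The meristem genes *AqSTM1*, *AqSTM2* and *AqKXL2* and the floral meristem gene *AqUFO1* were all detected, and none of the 11 markers was at 0 in any library. Between 64 genes (s2 to s3) and 1893 genes (s1 to s4) were called in the pairwise tests, that is, they had an adjusted p below 0.05 and differed by 1 log2 unit or more.

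Levels are given as TPM, in which counts are scaled by effective length and to a common library total, and can be set side by side between the paralogs, whose transcripts are 3326 bases (*AqAGO5a*) and 3123 bases (*AqAGO5b*) long. *AqAGO5a* was highest at s1 and lower at each later stage. At s1 it ranged from 87.9 to 112 TPM with a median of 93.1 TPM. At s2 the lowest library had 56.7 TPM, the median was 83.3 TPM and the highest had 105 TPM. In all, 5 of the 8 s2 libraries lay below every s1 library, while the other libraries lay within the s1 range. At s3 the values ran from 37.0 to 72.8 TPM around a median of 58.6 TPM. At s4 they ran from 23.9 to 50.5 TPM around a median of 32.9 TPM. The s3 and the s4 libraries all lay below all s1 libraries, and the s4 libraries below all s2 libraries. Neighbouring stages overlapped throughout, s1 with s2, s2 with s3 and s3 with s4.

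The mean level of *AqAGO5a* was 97.0 ± 9.34 TPM in s1 buds and 80.7 ± 17.7 TPM in s2 buds (mean ± SD, n = 8 libraries each). It was 58.4 ± 12.5 TPM in s3 buds and 34.1 ± 8.77 TPM in s4 buds. The mean at s4 was 0.351 of the mean at s1. The spread between libraries was 9.63% of the mean at s1 and between 21.5% and 25.7% at the later stages. Among the tested genes, 92.1% had a lower mean TPM than *AqAGO5a* at s1 and 75.7% had a lower one at s4.

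*AqAGO5b* stayed at a similar level over the same buds. At s1 it ranged from 65.2 to 96.1 TPM with a median of 78.7 TPM. At s2 it ranged from 55.7 to 105 TPM with a median of 71.4 TPM. At s3 the range was 58.6 to 124 TPM and the median 75.3 TPM, and at s4 the range was 44.6 to 107 TPM and the median 70.7 TPM. Each pair of stages overlapped, and the order of the 4 stages was within their spread. The mean was 80.2 ± 11.6 TPM in s1 buds, 73.2 ± 16.6 TPM in s2 buds, 80.1 ± 19.9 TPM in s3 buds and 70.7 ± 18.6 TPM in s4 buds (SD, n = 8 each). Between 88.4% and 90.1% of the tested genes had a lower mean TPM than *AqAGO5b* at each stage, so the rank of this gene among all genes hardly moved.

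**Figure D1:**
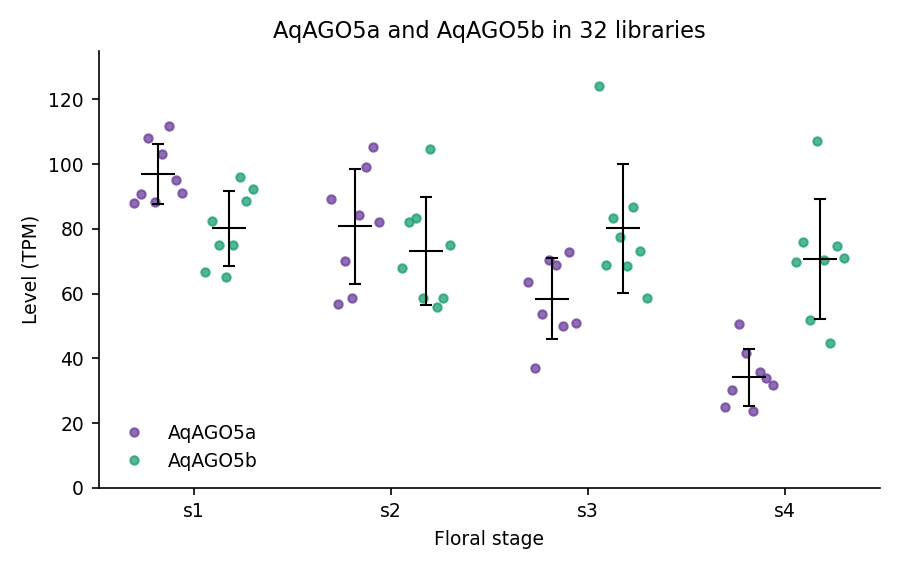
Level of *AqAGO5a* and *AqAGO5b* in TPM (vertical axis) by floral stage (horizontal axis), with 1 point per library, and bars at the mean ± SD of 8 libraries. The *AqAGO5a* points step down from 87.9 to 112 TPM at s1 to 23.9 to 50.5 TPM at s4, while the *AqAGO5b* points at the 4 stages overlap, with single high libraries at s2, s3 and s4.

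Changes between stages were fitted with edgeR's quasi-likelihood test over all 20477 genes, with the later stage minus the earlier. For *AqAGO5a* the log2 fold change was -0.24 ± 0.14 from s1 to s2 (± SE), -0.46 ± 0.14 from s2 to s3 and -0.71 ± 0.14 from s3 to s4. The steps added up to -0.70 ± 0.14 from s1 to s3, -1.17 ± 0.14 from s2 to s4 and -1.41 ± 0.14 from s1 to s4. The 95% interval of the s1 to s4 value ran from -1.70 to -1.12. Only the s1 to s4 and s2 to s4 values passed the fold threshold of 1 log2 unit, and the s1 to s3 and s3 to s4 values fell short of it. These comparisons share libraries, and the gene was chosen in the same libraries from its links with genes associated with s1, so they are a description. Of all tested genes, 1.94% were called lower at s4 than at s1 and 1.09% were called lower at s4 than at s2. All 8 libraries of the later stage lay below all 8 of the earlier for 0.986% of genes from s1 to s3, 2.16% from s1 to s4 and 1.06% from s2 to s4.

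*AqAGO5b* was not called in any of the 6 comparisons. The share of all tested genes called was 0.596% from s1 to s2, 3.76% from s1 to s3, 9.24% from s1 to s4, 0.313% from s2 to s3, 5.0% from s2 to s4 and 1.19% from s3 to s4. Its log2 fold change from s1 to s4 was -0.07 ± 0.16 (SE), with a 95% interval from -0.39 to 0.25 and an edgeR adjusted p of 0.773. A change of 1 log2 unit in either direction lies outside this interval, and a small change does not. The other log2 fold changes of *AqAGO5b* were -0.10 (s1 to s2), 0.03 (s1 to s3), 0.13 (s2 to s3), 0.03 (s2 to s4) and -0.11 (s3 to s4), with adjusted p-values of 0.741 to 1. The level of this gene was known when the pair was chosen. Leaving out 1 library turned the sign of several of these values, each of them near 0, and none became a call.

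**Figure D2:**
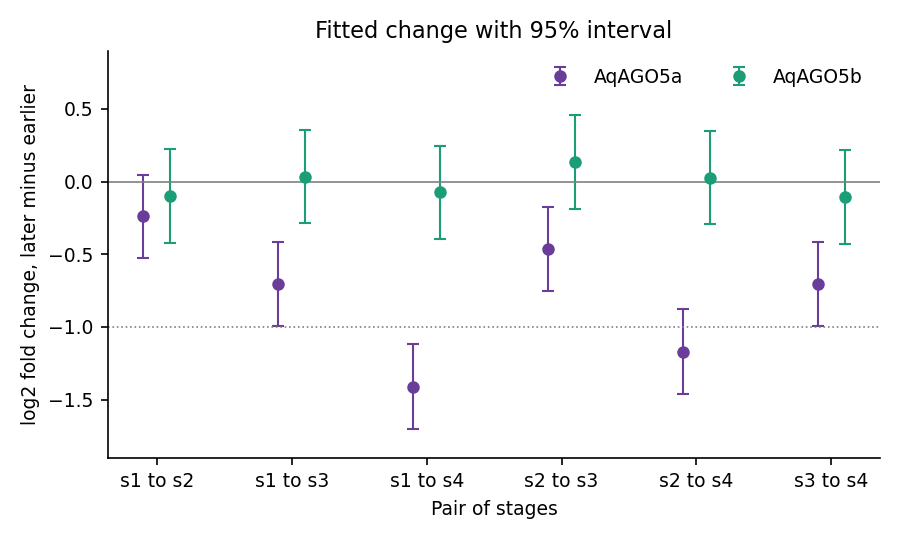
Fitted log2 fold change, later minus earlier stage (vertical axis), of *AqAGO5a* and *AqAGO5b* in the 6 pairs of stages (horizontal axis), with 95% intervals from the fit over 32 libraries and a dotted line at -1. The interval of *AqAGO5b* spans 0 in all 6 pairs, and *AqAGO5a* lies at -1.41 from s1 to s4.

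The direct comparison of both courses used the log2 ratio of *AqAGO5a* to *AqAGO5b* within each library, from which the scaling of the library drops out. The ratio was above 0 where *AqAGO5a* was the more abundant paralog. *AqAGO5a* was above *AqAGO5b* in 7 of 8 libraries at s1, 5 of 8 at s2, 1 of 8 at s3 and 0 of 8 at s4. At s1 the log2 ratio ranged from -0.02 to 0.53 with a median of 0.31. At s2 it ranged from -0.54 to 0.85 with a median of 0.07. The s2 libraries were the most mixed in sign, with replicates 6 and 7 at 0.83 and 0.85 and replicate 2 at -0.54. At s3 it ranged from -0.97 to 0.0034 with a median of -0.42. The s3 libraries lay in a group of 4 at -0.63 and below (replicates 1, 2, 3 and 6) and a group of 4 at -0.21 and above. At s4 it ranged from -1.56 to -0.04 with a median of -1.24, and replicates 3 (-0.04) and 6 (-0.32) stood above the other 6, which lay at -1.14 and below.

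The log2 ratio averaged 0.28 ± 0.20 over the s1 libraries, 0.14 ± 0.52 over s2, -0.46 ± 0.41 over s3 and -1.05 ± 0.56 over s4 (SD, n = 8 each). It was lower at s4 than at s1 by 1.33 log2 units (-1.33 ± 0.21 SE, adjusted p = 0.000932 over 6 pairs of stages, exact two-sided permutation test), the smallest value that 8 libraries against 8 can give here. All 8 s4 libraries lay below all 8 s1 libraries. The difference was -0.74 ± 0.16 from s1 to s3 (adjusted p = 0.0014, same exact test) and -1.19 ± 0.27 from s2 to s4 (adjusted p = 0.00311, exact). It was -0.59 ± 0.23 from s2 to s3 (adjusted p = 0.0359, exact) and -0.59 ± 0.25 from s3 to s4 (adjusted p = 0.0407, exact). From s1 to s2 it was -0.14 ± 0.20 (adjusted p = 0.470, exact), so no change in balance was detectable between these stages. *AqAGO5a* was chosen in these libraries from its links with genes associated with s1. These p-values thus measure the difference against the spread between libraries and are not independent support for it.

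The calls of both single steps were close to the threshold, and leaving out 1 library could end them with little change in the difference. The s2 to s3 value lost the threshold without s2 replicate 1, 6 or 7 or s3 replicate 1, 2 or 6, with log2 differences of -0.56 to -0.49 and adjusted p-values of 0.0507 to 0.0591 (exact permutation tests). The s3 to s4 value lost it without any 1 of s3 replicates 4, 5, 7 and 8 and s4 replicates 1, 2, 4, 5, 7 and 8, with log2 differences of -0.58 to -0.52 and adjusted p-values of 0.0608 to 0.0744 (exact). With same-numbered libraries taken as pairs, the s3 to s4 difference also lost the threshold (adjusted p = 0.103, exact sign-flip test). The comparisons of s1 with s3, s1 with s4 and s2 with s4 kept an adjusted p of at most 0.00622 whichever library was left out (exact).

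**Figure D3:**
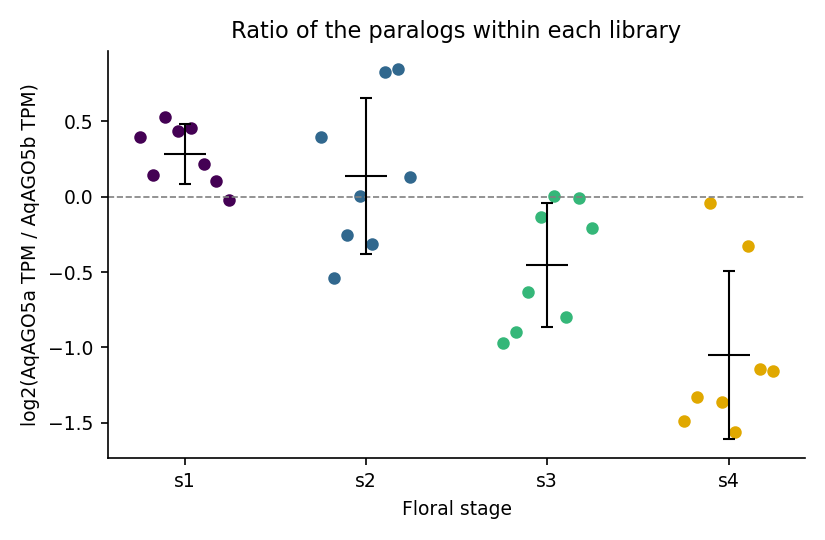
Log2 ratio of *AqAGO5a* to *AqAGO5b* TPM (vertical axis) in each library by floral stage (horizontal axis), with bars at the mean ± SD of 8 libraries and a dashed line at equal levels. The means go from 0.28 at s1 to -1.05 at s4, and 2 of the s4 libraries, at -0.04 and -0.32, lie within the s3 range.

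As a share of the summed TPM of the pair, *AqAGO5a* made up from 49.7% to 59.0% in the s1 libraries (median 55.3%) and from 40.8% to 64.3% in those of s2 (median 51.2%). Its share was from 33.8% to 50.1% in the s3 libraries (median 42.8%) and from 25.3% to 49.3% in those of s4 (median 29.7%). Both levels summed to 177 ± 17.5 TPM in s1 buds, 154 ± 20.3 TPM in s2 buds, 138 ± 25.3 TPM in s3 buds and 105 ± 19.9 TPM in s4 buds (SD, n = 8 each). The pooled output of the pair at s4 was thus 0.591 of that at s1, and all s4 sums lay below all s1 sums. These values contain the *AqAGO5a* levels that led to its choice and carry no test.

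Reads that fit both paralogs bear on these values. Kallisto divides a read that matches several transcripts by estimate, which leaves an estimated count that is not whole. Both counts were whole, within 0.005, in 9 of the 32 libraries. In 20 of the other 23 libraries the fractional parts of the pair summed to a whole number, within 0.015, and in 3 they did not. At s1 replicate 1, for instance, 4750.86 counts of *AqAGO5b* and 6683.14 of *AqAGO5a* made 11434 together. For comparison, 60.6% of the tested genes had whole counts in all 32 libraries. How many reads were divided between the paralogs is not recorded in these values. A split between the paralogs enters each paralog's level and their ratio, and their summed TPM only through the difference in effective length. In the 3 libraries without a whole sum, reads may also have been divided with other transcripts, which would enter the summed TPM directly.

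Within a stage the levels of the paralogs showed no detectable relation over 8 libraries. Pearson's r of log2 TPM was 0.41 at s1 (Spearman's rho 0.57), -0.29 at s2 (rho -0.52), 0.21 at s3 (rho 0.02) and -0.15 at s4 (rho -0.07). Adjusted over the 4 stages, the exact permutation p was 0.747 for each r and 0.393 to 0.977 for rho. Without the 2 libraries farthest from the median of *AqAGO5a*, r was 0.29, -0.71, 0.16 and 0.25 in the same order. The s4 value turned to 0.22 without s4 replicate 3 alone. On log2 CPM, r at s4 was -0.0069 with all 8 libraries and -0.44 without the 2 farthest, so no sign can be given at s4. Over all 32 libraries together r of log2 CPM was 0.05, a value that mixes the differences between stages with the spread within them.

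**Figure D4:**
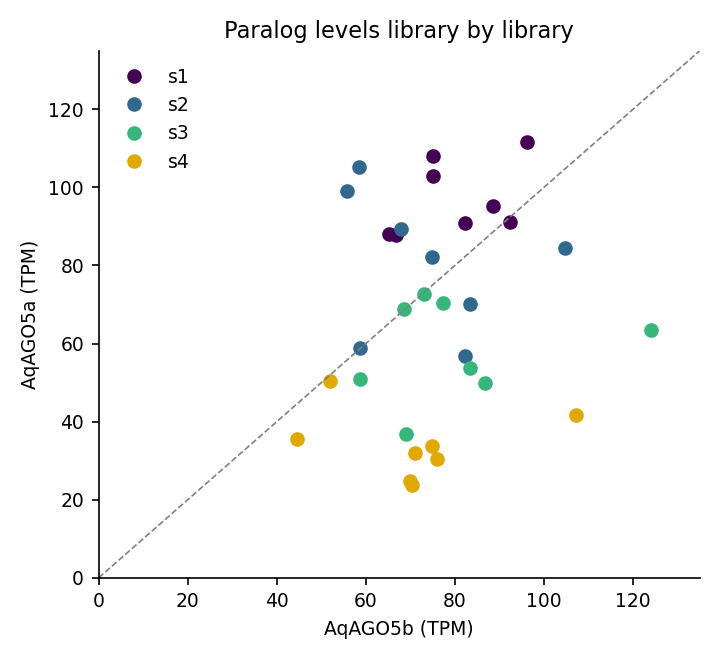
Level of *AqAGO5a* (vertical axis, TPM) against *AqAGO5b* (horizontal axis, TPM), 1 point per library, coloured by stage, with a dashed line at equal levels. The stages step down along the vertical axis, from a mean of 97.0 TPM at s1 to 34.1 TPM at s4, with neighbouring stages overlapping. They mix along the horizontal axis.

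The libraries of one stage also differed along a common axis, the first component of the log2 CPM values after the stage means were taken out, which held 38.7% of the within-stage variance. The deviations of *AqAGO5a* followed this axis with r = 0.77 over the 32 libraries and those of *AqAGO5b* with r = 0.01. For the log2 ratio of the pair r was 0.49, so the ratio was not free of this axis. The library at the far end of the axis was s4 replicate 4. Without that library the values were 0.77 for *AqAGO5a*, -0.35 for *AqAGO5b* and 0.71 for the log2 ratio. These are descriptions over libraries that share their scaling. With the axis as a covariate, a choice made after seeing the data, the s1 to s4 log2 fold change of *AqAGO5a* was -1.44 ± 0.09 (SE) and that of *AqAGO5b* was -0.08 ± 0.15. The stage means were taken out of the axis, so as a covariate it could hardly move a change between stages. These values are thus no check on the stage changes. The log2 ratio was not tested with this covariate.

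The stages also differed in tissue markers, and in bulk buds fewer cells of a type and less RNA per cell cannot be told apart. From s1 to s4, 6 of the 11 markers were called lower and 5 were called higher, beside 1.94% and 7.31% of all tested genes. All of the listed meristem, floral meristem and floral genes fell. Among them were the KNOX gene *AqSTM2* (log2 fold change -2.67), the F-box gene *AqUFO1* (-4.15) and the bZIP gene *AqPAN* (-2.92). The study had picked all 6 on these same libraries for their tie to s1, so their fall is not independent evidence. In the study most KNOX genes fell, but *AqKXL3* was highest at s2, and the MADS-box genes *AqAG2* and *AqAGL12* rose. The carpel gene *AqCRC* (1.47), the stomatal genes *AqMUTE* (1.88) and *AqEPF1* (2.08) and both *LHCB1.3* homologs of green tissue (2.64 and 1.18) rose. The study had named *AqCRC*, *AqMUTE* and *AqEPF1* as higher at s2 than at s1 in these libraries, so their rise is not independent evidence either. The mean of *AqCRC* was 11.4 TPM at s1, 37.3 TPM at s2 and 30.5 TPM at s4. That of *AqEPF1* rose further, from 4.49 TPM at s2 to 7.10 TPM at s4. In TPM, the sum over the 3 meristem genes was 188 to 293 in the s1 libraries, 127 to 167 in those of s2, 86.6 to 124 in those of s3 and 39.4 to 68.4 in those of s4, with no overlap between stages. The summed TPM of both *LHCB1.3* homologs was 16.6 to 112 in the s1 libraries and 78.4 to 311 in those of s4. The part of these shifts in the course of *AqAGO5a* was not tested.

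The genes whose values over the 32 libraries were most like those of *AqAGO5a* were also lower at each later stage on average. Over 18223 genes with a mean of at least 1 CPM (counts scaled to library size), the highest Pearson r of log2 CPM belonged to *Aqcoe2G274900* (r = 0.97), a homolog of the KNOX gene *KNAT6*, which helps to form organ boundaries in *A. thaliana*. Its mean level went from 42.4 TPM at s1 to 11.1 TPM at s4. The next was *AqMP* (*Aqcoe5G226900*, r = 0.95), a homolog of the auxin response factor MONOPTEROS, with 236 TPM at s1 and 108 TPM at s4. *Aqcoe2G391400* (r = 0.95), *Aqcoe5G442200* (r = 0.95) and *Aqcoe5G104000* (r = 0.94) followed. With the stage means taken out, these 5 genes had an r of 0.68 to 0.84 with *AqAGO5a* over the 32 libraries, where the middle 95% of 18222 genes lay between -0.77 and 0.77. The r values describe libraries that share stage and composition.

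The genes most like *AqAGO5b* were others, and their r over the 32 libraries, which includes the differences between stages, was lower. *Aqcoe1G145400* had r = 0.84 over the 32 libraries and 0.88 with the stage means taken out, at 89.2 TPM at s1 and 82.3 TPM at s4. *Aqcoe3G210000*, *Aqcoe5G341200*, *Aqcoe6G079900* and *Aqcoe5G385000* had an r of 0.67 to 0.70. Without s4 replicate 4, only *Aqcoe1G145400* (r = 0.81) and *Aqcoe6G079900* (r = 0.69) were still among the first 5.

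The study named 33 hub genes of a co-expression module associated with s1, of which 24 were higher and 9 were lower at s1. They were selected on these libraries by their tie to that stage, so their direction is not independent evidence. *AqAGO5a* was itself singled out for its strong links to these hub genes in the same libraries. Its high r with them, and the contrast with *AqAGO5b*, follow from that choice and are only described. *AqAGO5a* correlated with all 24 of the first kind at r = 0.54 to 0.94 (median 0.85) and with all 9 of the second at r = -0.88 to -0.52 (median -0.81). The middle 95% of 18222 genes had r with *AqAGO5a* between -0.78 and 0.76, with a median of 0.02. Among the hub genes, *AqSEP1*, a MADS-box floral identity gene (r = 0.91), *AqSAP*, an F-box gene (0.91), *AqPHB*, a homeobox gene for the upper side of organs (0.91), and *AqSTM1*, a KNOX meristem gene (0.90), lay close to *AqAGO5a*. With *AqAGO5b* the 24 genes had r between -0.10 and 0.18 (median 0.09) and the 9 genes between -0.23 and 0.09 (median -0.12).

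With the stage means taken out, most of the likeness to the hub genes was no longer there. The 24 genes then had r with *AqAGO5a* from -0.50 to 0.68 with a median of 0.13, positive for 13 and negative for 11. The 9 genes had r from -0.65 to 0.45 with a median of -0.12. *Aqcoe5G104000* (0.68), *AqSEP1* (0.53) and *AqPHB* (0.52) stayed highest, while *FLP1* (-0.50) and *AqAS1* (-0.44), a MYB gene of leaf and organ patterning, lay at the other end. These are descriptions over 32 libraries.

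**Figure D5:**
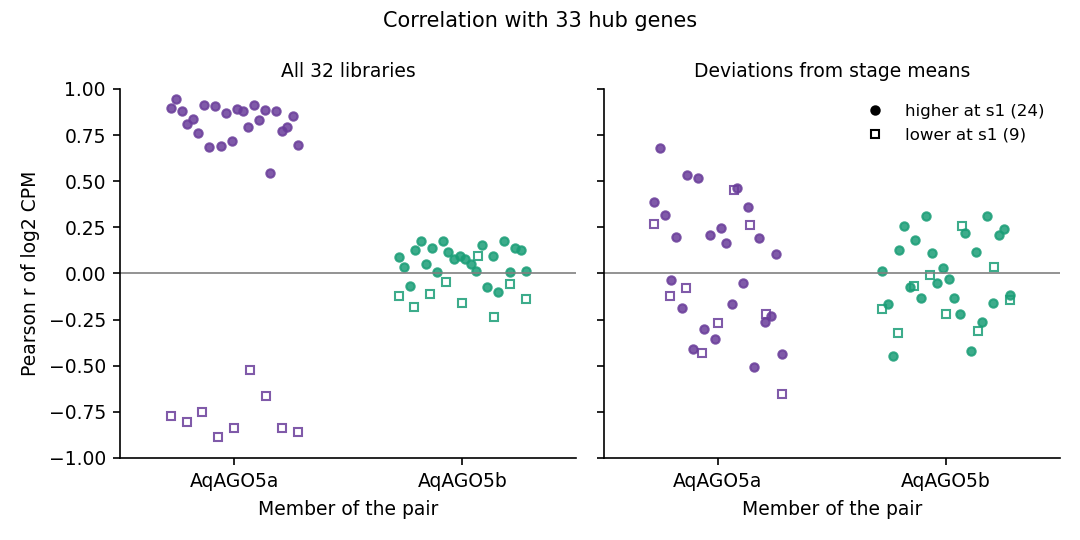
Pearson r of log2 CPM (vertical axis) of each of 33 hub genes with *AqAGO5a* and with *AqAGO5b* (horizontal axis), over 32 libraries (left) and for deviations from stage means (right), with filled circles for the 24 genes higher at s1 and open squares for the 9 lower at s1. On the left the *AqAGO5a* points separate into 0.54 to 0.94 and -0.88 to -0.52, and on the right they mix around 0.

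Other genes of the small RNA pathway moved both ways from s1 to s4. Of 7 homologs, 4 were called higher and 1 was called lower, beside 7.31% and 1.94% of all tested genes. Their median log2 fold change was 1.49 and that of all tested genes was 0.01. The loci come from tables that the study made on these libraries, mostly of genes that changed, so the count is not a sample of the pathway. The homolog of *AGO10*, which in *A. thaliana* holds miR166 away from AGO1, differed by -0.69 ± 0.13 on the log2 scale (SE; adjusted p = 9.4e-05 in edgeR's test) and missed the fold threshold. Its level was 26.5 ± 2.46 TPM at s1 and 15.3 ± 3.16 TPM at s4 (SD, n = 8 each), below both *AGO5* paralogs at each stage.

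The other 6 loci of this list had a mean of at most 6.67 TPM at every stage. Both homologs of *RDR1*, an RNA-dependent RNA polymerase that makes double-stranded RNA, rose from s1 to s4, *Aqcoe4G176400* with a log2 fold change of 1.67 ± 0.41 and *Aqcoe5G431300* with 1.72 ± 0.45. Their highest library had 1.85 and 6.43 TPM. The homologs of *DRM1*, a DNA methyltransferase guided by siRNAs, differed from each other. *Aqcoe1G274000* rose (1.49 ± 0.22), *Aqcoe4G061800* fell (-1.61 ± 0.34) and *Aqcoe4G192200* was not called (-0.66 ± 0.30, edgeR adjusted p = 0.108). A homolog of the *NRPB6A* family, a subunit of RNA polymerases, rose by 3.53 ± 0.52 and ranged from 1.21 to 11.5 TPM at s4, and 1 s2 library was at 0.

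Homologs of 4 genes that microRNAs target in *A. thaliana* were set beside the pair. Of these, 2 were called lower and 1 was called higher from s1 to s4, beside 1.94% and 7.31% of all tested genes. Their median log2 fold change was -0.94 and that of all tested genes was 0.01. Both genes called lower, *AqPHB* and the *TIR1* homolog, were hub genes that the study chose on these libraries by their tie to a stage. The count and the median are thus not a sample of microRNA targets. *AqPHB*, a target of miR166 in *A. thaliana*, fell (-1.31 ± 0.10 SE) and so did the homolog of the auxin receptor *TIR1*, a target of miR393 (-1.08 ± 0.17). The homolog of the flowering repressor *TOE1*, a target of miR172, rose from 15.7 ± 1.56 TPM to 40.0 ± 8.19 TPM (SD, n = 8 each, log2 fold change 1.45 ± 0.13). The homolog of *GRF4*, a transcription factor gene of the GROWTH-REGULATING FACTOR family and a target of miR396, had -0.81 ± 0.13 and missed the fold threshold. Small RNAs were not measured in these libraries.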

How the data were processed

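Buds were sequenced as SMART-Seq cDNA in 150-base read pairs, and the authors trimmed the reads and quantified them with kallisto on the reference transcriptome of the cultivar Goldsmith. The deposited tables hold estimated counts (expected counts that need not be whole), TPM values and effective lengths per transcript, which the authors' tool computed for each of the 32 libraries. Estimated counts were rounded and tested with edgeR 4.0.16 (R 4.3.3): TMM scaling, genes over 1 CPM in at least 1 library, 1 quasi-likelihood fit with a term per stage, and Benjamini-Hochberg adjustment over 20477 genes. The study itself used DESeq2 on length-scaled counts. Here DESeq2 1.42.0 on estimated counts and edgeR on length-scaled counts were tried as alternatives, but not both changes together. Ratios used TPM with no pseudocount and exact two-sided permutation tests, adjusted over 6 pairs. The edgeR script was tested on simulated data. The SE of a fold change is its size divided by the root of the test statistic.

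The members, the gene lists and the tests were chosen with earlier results of these data known. The named genes are the pair, the listed hub, pathway, target and marker genes, and for each member the 5 genes with the highest r. The median correlation of deviations was 0.0030 in 48 pairs of same-numbered libraries of different stages and 0.0043 in 336 other pairs. Correlations above 0.1 were found in 17 of the former and 117 of the latter. For s2 to s3 alone the median was 0.11 in 8 pairs. No replicate block was used in the main tests, and the result with one is given below. No 2 libraries held identical counts. The labels do not tie libraries to individual plants, so libraries that share a plant could not be modelled. Gene positions and sequences were not used here, since none of the 24823 entries of the reference table carried the identifiers of these files.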

Additional observations from a re-analysis of the deposited data

Results flagged for a closer look

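*AqAGO5b* at s3 had 1 library far from the others. Replicate 1 was at 124 TPM, and its distance to the next library was 0.570 of the whole range of the 8 libraries, above Dixon's 95% critical value for such a group. The log ratio of the same library, -0.97, was the lowest at s3 without standing apart. Of 12 groups of 8 libraries looked at (both genes and the log ratio at 4 stages), this was 1, and chance gives such a library in about 1 of 20 groups. Without it the log2 fold change of *AqAGO5b* was -0.09 from s1 to s3 and 0.014 from s3 to s4, neither of them called (edgeR adjusted p of 0.884 and 0.973).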

How the results depend on the processing

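The log ratio kept its direction in all 6 pairs of stages under estimated counts, edgeR log2 CPM, length-scaled counts, stage medians and a replicate block. It kept its side of the threshold in all but 1 of these results other than the stage medians, which have no test. With the replicate block (same-numbered libraries as pairs, exact sign-flip test), the s3 to s4 difference of -0.59 had an adjusted p of 0.103, and the block changed no other call. A library's best match in another stage carried its own number in 20 of 96 cases. With 8 libraries per stage, numbers without any tie would give 1 case in 8, a lower share. This difference was not tested. Over the fits that leave out 1 library, the s2 to s3 difference ranged from -0.69 to -0.49 and the s3 to s4 difference from -0.74 to -0.52. The log2 fold change of *AqAGO5a* kept its direction and stayed within 1 SD of the libraries under the 8 alternatives and every library left out (s1 to s4 from -1.50 to -1.35 without 1 library). Of these 8, the within-stage axis as a covariate could hardly move it, since the stage means were taken out of the axis. *AqAGO5b* was never called. With 1 library left out its value ranged from -0.085 to 0.087 (s1 to s3), -0.21 to 0.0036 (s1 to s4), -0.10 to 0.11 (s2 to s4) and -0.24 to 0.014 (s3 to s4). The within-stage r at s4 ranged from -0.60 to 0.22. The number of genes called moved by over 1.5 times with DESeq2 (200 genes for s1 to s2 in place of 122, 110 for s2 to s3 in place of 64) and with the 16 libraries compared alone (81 for s1 to s2, 156 for s3 to s4 in place of 243). With the within-stage axis as a covariate, chosen after seeing the data, 207 genes were called for s1 to s2, 129 for s2 to s3 and 481 for s3 to s4. With 1 library left out the counts ranged from 73 to 160 (s1 to s2, lowest without s1 replicate 6) and from 175 to 461 (s3 to s4, highest without s4 replicate 4). The cause was not tested. For *AqAGO5b*, 8 libraries per stage give an SE of about 0.16 log2 units, which bounds its change but does not show that there was none.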
